A study of Homo sapiens with 18 samples.

Results

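Stress-response genes were compared between Panc89 Paraclone and Panc1 Paraclone cells, and each difference between the lines was set against the one between the parental cells. The comparison used 12 of the 18 RNA-seq libraries of the series: 3 Panc89 Paraclone, 3 Panc1 Paraclone, 3 parental Panc89 and 3 parental Panc1 libraries. The members were 254 genes of 10 stress-response lists. Tested were 244 that reached at least 1 TPM (a length-scaled share of a library's transcripts) in at least 3 of all 18 libraries. Of these 244 genes, 68 had a difference between the lines that was larger, smaller or of opposite sign in the Paraclone cells than in the parental cells. Panc1 is a pancreatic ductal adenocarcinoma (PDAC) line from a primary tumor and served as the mesenchymal-like model, while Panc89 is a PDAC line from a lymph node metastasis and served as the epithelial model. Parental cells are the uncloned lines, and a Paraclone is a colony type held to contain differentiated cells with little stem cell property. The labels name no transgene, engineered deletion or drug treatment for any group. Each Paraclone culture was grown from a single cell, so each line was represented by 1 clone, and the 3 replicates were 3 passages. Line and clone therefore cannot be told apart, and the p-values measure the spread between passages.

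Cells answer stress with a small number of transcription factor programs. HSF1 drives cytosolic chaperones, the XBP1 and ATF6 arms of the unfolded protein response drive chaperones and degradation factors of the endoplasmic reticulum (ER), and ATF4 drives amino acid genes when translation is held back. NRF2, encoded by NFE2L2 and kept low by KEAP1, drives genes for glutathione, thioredoxin, NADPH and detoxification, MTF1 drives the metal-binding metallothioneins, and HIF1A drives the answer to low oxygen. In pancreatic cancer, NRF2 and HIF1A are known for their part in redox balance and in survival at low oxygen.

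Of the markers of the lines, EPCAM, an epithelial adhesion protein, had a mean log2(TPM + 1) of 8.12 in Panc89 Paraclone and 1.43 in Panc1 Paraclone cells, and the intermediate filament VIM, a mesenchymal marker, had 0.44 and 12.06. The mesenchymal markers FN1 (3.69 and 0.42) and CDH2 (2.23 and 1.24) were higher in Panc89 Paraclone cells, and the keratins KRT8 (9.66 and 9.64) and KRT19 (10.31 and 10.25) were close. Of the 4 endothelial markers, PECAM1 and CDH5 were found in Panc89: the list summed to 55.2 to 69.1 TPM in parental Panc89, 2.95 to 8.90 TPM in Panc89 Paraclone and at most 0.416 TPM in Panc1 Paraclone cells, and its part in the results was not tested. The leukocyte list was almost all CD68, a lysosomal protein, with CD3E at or near 0. It summed to 124 to 151 TPM in Panc1 Paraclone and 36.1 to 65.9 TPM in Panc89 Paraclone cells. Libraries had 12932 to 13212 genes at 1 TPM or more in Panc1 Paraclone, 13360 to 13578 in Panc89 Paraclone and 13480 to 13844 in parental cells, and mitochondrial transcripts took 5.74 to 9.06% of the TPM over the 4 groups. TPM keep no read totals, so the depth behind a value is unknown and no interval for a 0 can be given. Parental Panc1 replicate 2 and Panc89 Paraclone replicate 2 stood apart from the other replicates of their groups in several stress genes, and several calls that change without them are given beside the gene.

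Across all 16093 genes tested, 60.7% differed between the 2 Paraclone cultures by limma with Benjamini-Hochberg adjustment at 0.05, with 30.2% higher and 30.4% lower in Panc89. Among the 244 stress genes, 125 (51.2%) differed, 59 of them higher and 66 lower in Panc89 Paraclone cells. Between the parental cells, 66.0% of all genes and 142 stress genes (58.2%) differed, 79 higher and 63 lower in Panc89, against 27.5% and 38.5% of all genes. The difference between the 2 line differences, called the interaction here (Paraclone line difference minus parental line difference), passed the test for 25.8% of all genes and for 68 stress genes (27.9%), a share close to the background.

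Of the 244 tested stress genes, 16 had a larger line difference in the Paraclone cells (7.18% of all 16093 genes). A smaller one was found in 31 (10.1%) and one of opposite sign in 21 (8.51%). Together these are the 68 called genes, and as parts of the 244 each class was near its share of all genes. For 5 of the 21, EPHX1, EGLN3, PLK2, MAP3K5 and FOSL2, both line differences passed the test on their own. Over all genes this held for 321 of the 1370 opposite genes, a similar share. All 5 were higher in Panc89 than in Panc1 among parental cells and lower in Panc89 than in Panc1 among Paraclone cells. The directions of the 321 were not counted, so no background stands beside this. Without Panc1 Paraclone replicate 3 the count of 5 stress genes was 3, and without parental Panc1 replicate 2 it was 8. The parental difference of FOSL2 rested on parental Panc1 replicate 2 and was 0.26 and not called without it, and the Paraclone difference of EGLN3 lost its call without Panc89 Paraclone replicate 2 (limma adjusted p = 0.0584).

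The sign of the interactions was uneven. Positive interactions, where Panc89 stood higher relative to Panc1 in Paraclone than in parental cells, made up 24 of the 68 stress genes (35.3%), and negative ones 44. Over all genes 17.0% of those tested had a positive and 8.81% a negative interaction, so that 65.9% of the calls were positive. The median interaction was 0.17 over all genes and -0.20 over the stress genes. When libraries were rescaled by their upper quartile, 22.5% of the stress gene calls and 49.7% of all calls were positive, and with median-of-ratios scaling 20.0% and 47.8%, with median interactions over all genes of 0.02 and 0.00.

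**Figure D1:**
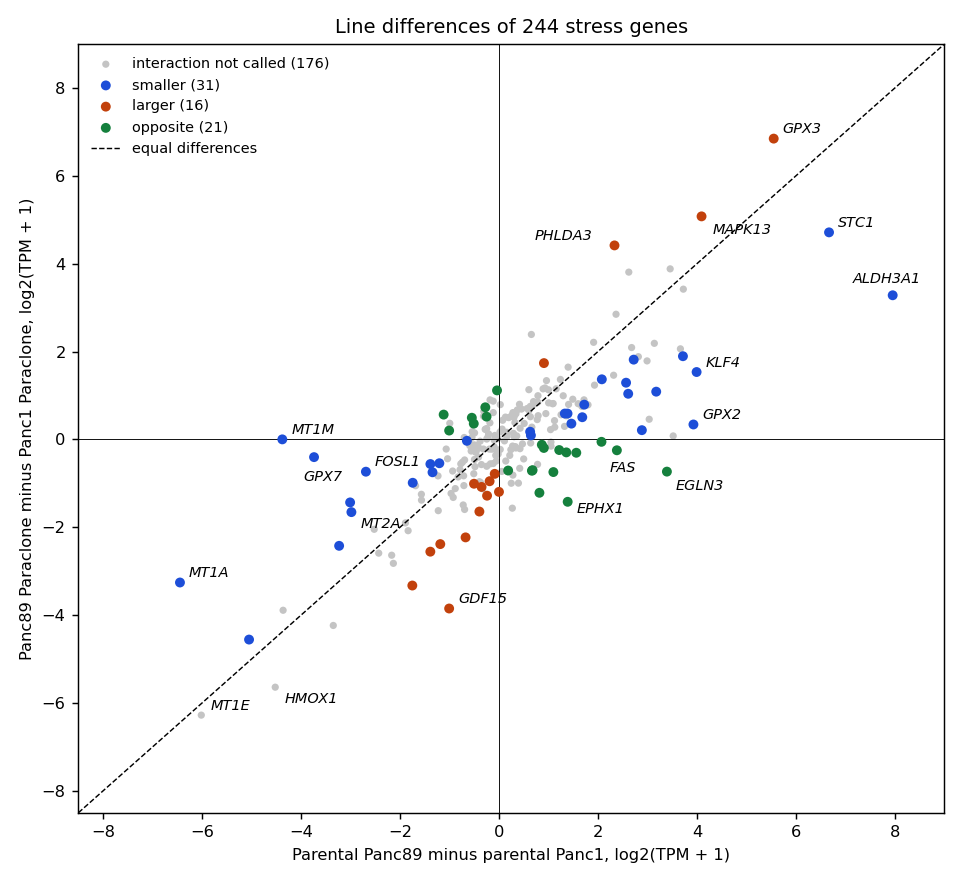
Each point is 1 of the 244 tested stress genes, with its line difference in parental cells on the x axis and in Paraclone cells on the y axis, both on the log2(TPM + 1) scale, and the dashed line marks equal differences. The 16 larger, 31 smaller and 21 opposite genes are coloured, and EGLN3, EPHX1 and FAS lie right of 0 on the x axis and below 0 on the y axis.

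An interaction can come from a change in either line. Panc1 Paraclone cells differed from parental Panc1 in 28.6% of all genes, with 7.31% higher and 21.3% lower. Panc89 Paraclone cells differed from parental Panc89 in 19.4%, with 9.37% higher and 10% lower. Of the 68 stress genes, 34 passed the Paraclone against parental test in Panc1 alone, 18 in Panc89 alone, 8 in both and 8 in neither. Over all 4159 genes with an interaction called these counts were 1969, 1347, 500 and 343, similar shares. The change in Panc1 was the larger in size for 40 of the 68 (58.8%), against 57.4% of all genes with an interaction called.

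**Figure D2:**
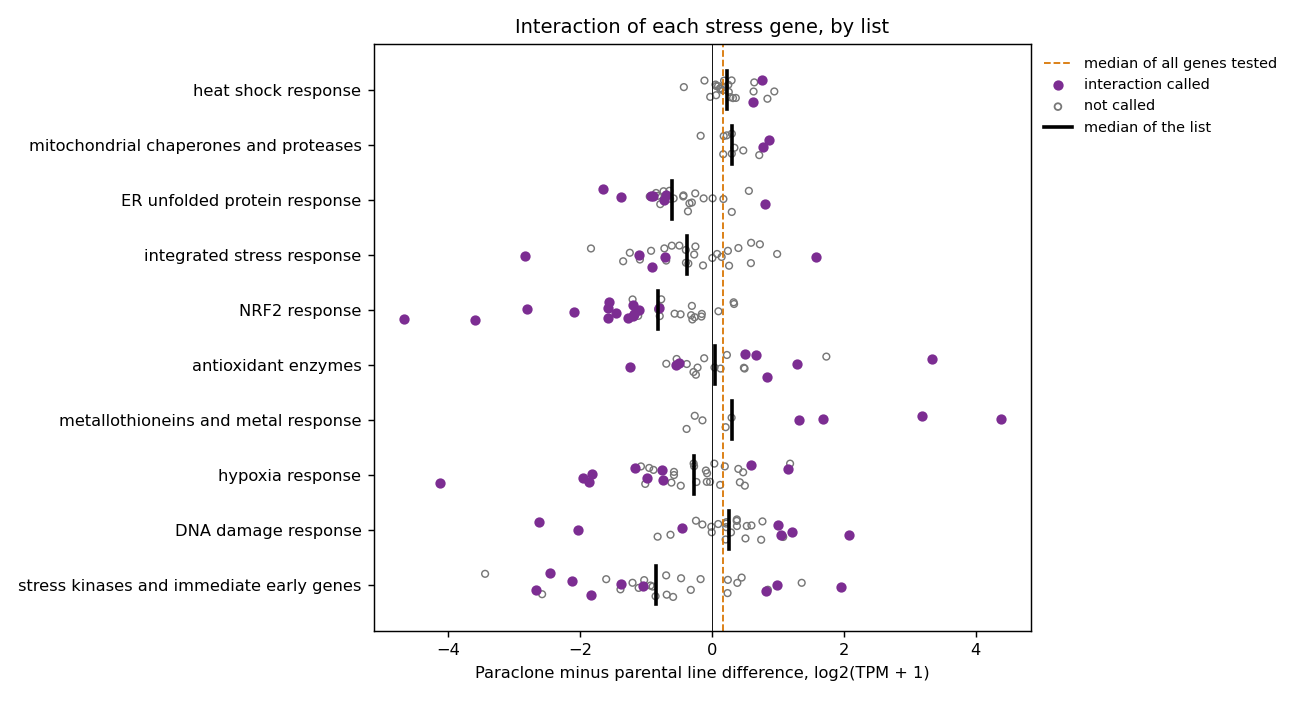
Each point is a tested stress gene, placed by its interaction on the x axis in log2(TPM + 1) units and by its list on the y axis. Filled points passed the test, black bars are list medians and the dashed line is the median of all genes, 0.17. All 14 filled points of the NRF2 list lie below 0 and all 4 of the metallothionein list lie above 0.

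Promoters of the genes were looked up in RefSeq (GRCh38.p14), where 206 of the 254 stress genes had at least 1 entry and 142 exactly 1. The 250 bases before the start site were searched on both strands for the antioxidant response element bound by NRF2 (TGACNNNGC) and the metal response element bound by MTF1 (TGCNCNC). The first was found in 11.1% of 22114 promoters in 5 of 17 promoters of the NRF2 list and in 4 of 7 of the metallothionein list. The second was found in 47.7% of all promoters, in 10 of 17 of the NRF2 list and in 6 of 7 of the metallothionein list. Of the 5 NRF2 genes with the element 3 had an interaction called, and of the 12 without it 5 had one. Of the 6 metallothionein list genes with the metal response element 1 had an interaction called, MT2A, and the 1 without it had no call. MT1A, MT1M and MT1F were not among the promoters searched. The 3 NRF2 genes and MT2A are shown as genes with a called interaction that carry the element of their own list. Capitals mark that element alone, in either orientation: the antioxidant response element in GPX2, CBR1 and ME1, and 7 metal response elements in MT2A. Elements left in lower case are 3 metal response elements in CBR1 and 1 antioxidant response element in MT2A. ME1, within its capitals, and MT2A, in lower case, each hold 1 AP-1 site (TGANTCA). A match describes the letters and does not show binding.
GPX2 (chr14:64942746-64942995, minus strand): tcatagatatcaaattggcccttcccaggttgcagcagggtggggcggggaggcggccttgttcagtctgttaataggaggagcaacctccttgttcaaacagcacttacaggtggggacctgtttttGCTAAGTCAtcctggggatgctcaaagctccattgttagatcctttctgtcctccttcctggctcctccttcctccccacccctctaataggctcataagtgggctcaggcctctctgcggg
CBR1 (chr21:36069774-36070023, plus strand): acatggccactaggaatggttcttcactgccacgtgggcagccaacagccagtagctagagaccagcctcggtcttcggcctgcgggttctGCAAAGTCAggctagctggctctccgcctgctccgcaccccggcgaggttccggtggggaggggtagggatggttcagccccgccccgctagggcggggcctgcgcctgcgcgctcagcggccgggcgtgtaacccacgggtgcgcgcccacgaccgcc
ME1 (chr6:83431052-83431301, minus strand): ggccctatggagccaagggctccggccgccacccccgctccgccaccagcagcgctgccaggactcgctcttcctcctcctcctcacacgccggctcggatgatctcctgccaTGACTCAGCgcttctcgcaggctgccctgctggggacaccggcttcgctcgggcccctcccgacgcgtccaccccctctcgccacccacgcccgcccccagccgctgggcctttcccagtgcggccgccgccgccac
MT2A (chr16:56608334-56608583, plus strand): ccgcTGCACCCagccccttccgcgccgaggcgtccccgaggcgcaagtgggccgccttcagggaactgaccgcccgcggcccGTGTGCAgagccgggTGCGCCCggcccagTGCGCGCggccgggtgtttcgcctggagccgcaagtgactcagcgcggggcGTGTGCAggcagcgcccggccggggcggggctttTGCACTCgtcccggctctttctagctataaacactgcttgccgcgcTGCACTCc

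In the NRF2 list the called interactions were all negative. By limma 0 of its 31 tested genes had a called positive interaction (0 at an unadjusted p under 0.05), against 17.0% of all genes. A called negative one was found in 14 (45.2%, against 8.81% of all genes). Below 0 were 28 of the 31 interactions, against 6213 of 16093 over all genes. The median was -0.82 against 0.17 for all genes. Within the lines, 11 of the 31 rose and 1 fell in Panc1 Paraclone against parental Panc1, while 0 rose (0 at an unadjusted p under 0.05) and 8 fell in Panc89 Paraclone against parental Panc89. Over all genes 7.31% rose and 21.3% fell in Panc1, and 9.37% rose and 10% fell in Panc89. Between the Paraclone cultures 8 were higher and 12 lower in Panc89, and between the parental cells 14 were higher and 8 lower. The shares of all genes were 30.2% higher and 30.4% lower between the Paraclone cultures, and 27.5% and 38.5% between the parental cells. The count of 14 stayed between 12 and 15 whichever library was left out and was 16 under both rescalings, with no called positive interaction.

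GPX2 encodes a selenium-dependent glutathione peroxidase of epithelia, on chromosome 14 (64939152 to 64942746, minus strand, GRCh38). Its log2(TPM + 1) was 3.93, 4.44 and 3.74 in parental Panc89 and 0.31, 0.58 and 0.19 in Panc89 Paraclone libraries. In Panc1 it was 0.00, 0.27 and 0.05 in parental and 0.05, 0.00 and 0.00 in Paraclone libraries. The 3 parental Panc89 libraries stood clear of all others. The line difference of 3.93 ± 0.18 (SE, n = 3 per group) in parental cells was 0.34 ± 0.18 in Paraclone cells, an interaction of -3.59 (limma adjusted p = 9.43e-08).

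ALDH3A1, an aldehyde dehydrogenase that clears lipid aldehydes, lies on chromosome 17 (19737984 to 19748943). It was at 7.72, 8.14 and 8.07 in parental Panc89 and at 2.44, 3.91 and 4.36 in Panc89 Paraclone libraries. All 6 Panc1 libraries lay between 0.00 and 0.43. Panc89 was therefore higher in both comparisons, by 7.95 ± 0.33 in parental and 3.28 ± 0.33 in Paraclone cells, and the interaction of -4.67 (limma adjusted p = 3.6e-06) was the most negative of the named genes. In both genes the Panc1 cultures were near 0 and the change was in Panc89, where GPX2 fell by 3.68 and ALDH3A1 by 4.40.

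EPHX1, the microsomal epoxide hydrolase, on chromosome 1 (225810124 to 225845563), changed in both lines. It was at 5.24, 5.21 and 5.41 in parental Panc1 and at 5.55, 6.41 and 7.14 in Panc1 Paraclone libraries, a rise of 1.08 (limma adjusted p = 0.0059). In Panc89 it fell by 1.73 from 6.69, 6.58 and 6.74 to 4.75, 5.01 and 5.07 (limma adjusted p = 0.000217). The groups did not overlap in any of the 4 comparisons. Panc89 was higher by 1.39 ± 0.26 among parental cells and lower by 1.42 ± 0.26 among Paraclone cells.

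**Figure D3:**
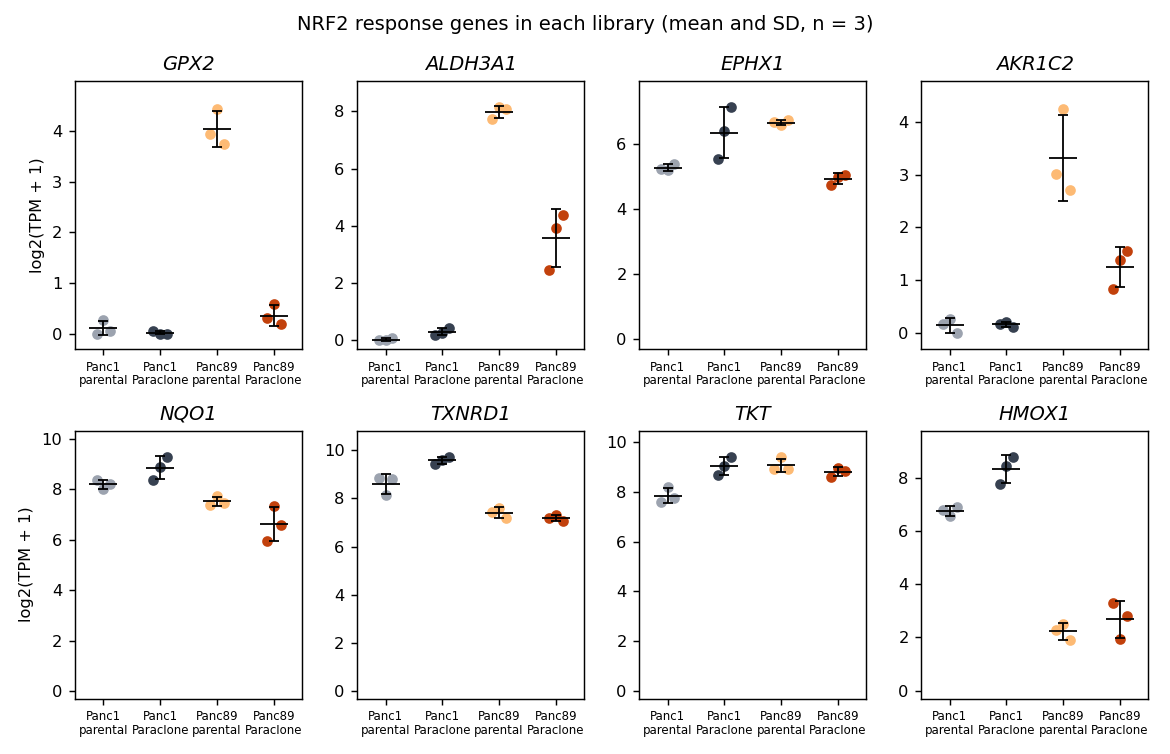
Points are single libraries of 8 NRF2 response genes in the 4 groups, the y axis is log2(TPM + 1), and bars are the mean and SD of 3 replicates. GPX2 and ALDH3A1 are high in parental Panc89, TXNRD1 is highest in Panc1 Paraclone (9.42 to 9.73), and EPHX1 changes order between parental and Paraclone cells.

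Genes of NADPH supply and the thioredoxin system moved mainly in Panc1. TXNRD1, thioredoxin reductase, was at 8.85, 8.12 and 8.80 in parental Panc1 and 9.42, 9.57 and 9.73 in Panc1 Paraclone libraries, and at 7.05 to 7.62 in all 6 Panc89 libraries. Its line difference was -1.19 in parental and -2.38 in Paraclone cells. TKT, transketolase, was higher in Panc89 by 1.22 among parental cells and differed by -0.24 among Paraclone cells, which did not pass the test. ME1, malic enzyme, had a parental line difference of 0.00 and a Paraclone one of -1.20. Thioredoxin itself (TXN) was higher in Panc89 in both, by 1.38 and 0.59. Each of these genes rose in Panc1 Paraclone against parental Panc1, by 0.65 for TXN to 1.20 for TKT, and none passed the test in Panc89.

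The remaining called genes of the list are detoxification, iron and glutathione genes. NQO1, a quinone reductase, was lower in Panc89 by 0.68 in parental and 2.23 in Paraclone cells, and fell by 0.90 in Panc89 Paraclone against parental cells. GCLC, the catalytic subunit of glutathione synthesis, had 0.91 and -0.20, and CBR1, a carbonyl reductase, 1.68 and 0.50, the latter called only without parental Panc1 replicate 2. The parental difference of NQO1 was not called without that library. FTH1, the ferritin heavy chain, was higher in Panc89 by 2.57 and 1.29. AKR1C2, an aldo-keto reductase, was at 3.01, 4.25 and 2.71 in parental Panc89 and at 0.83, 1.39 and 1.55 in Panc89 Paraclone libraries, with at most 0.27 in Panc1. AKR1B10, a related reductase, had line differences of 2.61 and 1.04, the latter 0.70 and not called without Panc89 Paraclone replicate 2. AKR1C2 and its neighbour genes AKR1C1 and AKR1C3, and FTH1 and its pseudogenes, are alike in sequence, so reads may have been divided between them. The interactions of FTH1, AKR1C2 and AKR1B10 lost the call in 7, 6 and 3 of 20 alternatives.

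The regulators NFE2L2 and KEAP1 had interactions of 0.34 and 0.33 that did not pass the test (limma adjusted p = 0.576 and 0.252). HMOX1, heme oxygenase, had the largest Paraclone line difference of the list: it was at 7.74, 8.44 and 8.78 in Panc1 Paraclone and 3.29, 1.93 and 2.82 in Panc89 Paraclone libraries, a difference of -5.64 ± 0.31. The parental difference was -4.52 ± 0.31, and the interaction of -1.12 missed the threshold (limma adjusted p = 0.0713). AKR1C3 was higher in Panc89 by 3.42 in Paraclone and 3.72 in parental cells, with the Panc1 Paraclone libraries listed at 0.

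The called metallothioneins, small cysteine-rich proteins that bind zinc and copper, had positive interactions. Of 14 genes on the list 9 were tested, 6 with an interaction above 0 and 3 below. Over all 16093 genes 9879 interactions were above 0 and 6213 below. Of the 9, 4 had a called one (44.4%, against 25.8% of all genes), all positive. These 4 calls held under each of the 20 alternatives tried. The median over the list was 0.30, and 0.13 and 0.12 under the rescalings. The 4 are MT1A, MT1M, MT1F and MT2A, and all 4 fell in Panc1 Paraclone against parental Panc1. In all, 5 of the 9 genes fell and 1 rose in Panc1 (4 and 2 under both rescalings, and over all genes 21.3% fell and 7.31% rose), against 1 each way in Panc89.

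MT1A (chromosome 16, 56638666 to 56640087) was at 6.37, 6.72 and 6.25 in parental Panc1 and 2.72, 3.29 and 3.77 in Panc1 Paraclone libraries, and was listed at 0 in all 6 Panc89 libraries. MT1M (chromosome 16, 56632659 to 56633981) was at 4.55, 4.30 and 4.28 in parental Panc1 and listed at 0 in the other 9 libraries of the 4 groups. The lines thus differed in MT1M among parental cells and not in the values listed for the Paraclone cells. MT1F was at 2.23, 1.79 and 2.87 in parental Panc1 and 0.87, 0.98 and 0.66 in Panc1 Paraclone libraries, while the 6 Panc89 libraries lay between 1.08 and 1.79. Its line difference was -1.12 among parental cells and 0.56 among Paraclone cells, the latter past the threshold only without parental Panc1 replicate 2.

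MT2A (chromosome 16, 56608584 to 56609497), the most abundant metallothionein here, was at 11.58, 11.43 and 11.41 in parental Panc1 and 10.63, 10.67 and 10.43 in Panc1 Paraclone libraries. It was at 8.46, 8.81 and 8.21 in parental Panc89 and 9.28, 8.61 and 8.87 in Panc89 Paraclone libraries, which overlap. In TPM, Panc89 had 7.82-fold less than Panc1 among parental cells and 3.11-fold less among Paraclone cells. The interaction was 1.33 (limma adjusted p = 0.0142).

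MT1E (chromosome 16, 56625475 to 56627112) moved in both lines. It was at 8.56, 8.05 and 8.34 in parental Panc1, 6.31, 6.23 and 6.29 in Panc1 Paraclone and 2.08, 2.53 and 2.29 in parental Panc89 libraries, and was listed at 0 in all 3 Panc89 Paraclone libraries. The fitted line differences of -6.02 and -6.28 left an interaction of -0.26 that did not pass the test, but with a pseudocount of 0.1 in place of 1 the interaction of MT1E was -3.28 and passed. MTF1, the metal-sensing factor, had an interaction of 0.30 (limma adjusted p = 0.244). The MT1 genes are close copies in 1 cluster, so reads may have been assigned to a neighbour.

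**Figure D4:**
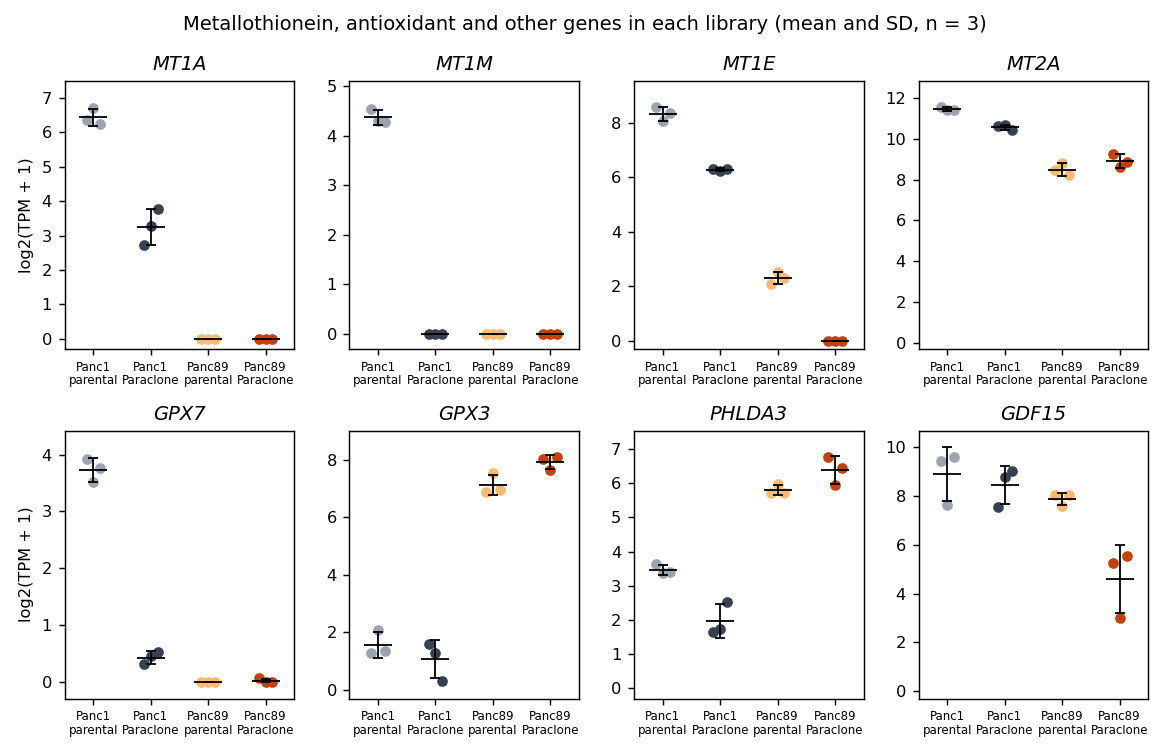
Points are single libraries of 8 metallothionein, antioxidant and other genes in the 4 groups, the y axis is log2(TPM + 1), and bars are the mean and SD of 3 replicates. MT1A, MT1M and GPX7 are high in parental Panc1, MT1E is listed at 0 in Panc89 Paraclone, and GDF15 is lowest in Panc89 Paraclone replicate 2 (3.01).

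Antioxidant enzymes outside the NRF2 list had 8 called interactions among 21 tested genes (38.1%, against 25.8% of all genes), 5 positive and 3 negative. The list median of 0.04 turned to -0.15 with upper quartile and -0.17 with median-of-ratios scaling, where 2 and 1 called interactions were positive. GPX7, a glutathione peroxidase of the ER, was at 3.93, 3.51 and 3.77 in parental Panc1, 0.30, 0.44 and 0.52 in Panc1 Paraclone libraries and at most 0.05 in Panc89. Its line difference was -3.74 in parental and -0.40 in Paraclone cells, an interaction of 3.33 (limma adjusted p = 2.71e-09). GPX3, the secreted glutathione peroxidase, was at 1.58, 1.30 and 0.32 in Panc1 Paraclone and 8.00, 7.64 and 8.09 in Panc89 Paraclone libraries, and its line difference of 6.85 was larger than the parental one of 5.55. The interaction of GPX3 was 1.30 (limma adjusted p = 0.0349) and lost the call in 12 of 20 alternatives.

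GPX1, the cytosolic glutathione peroxidase, was higher in Panc89 by 0.91 in parental and 1.74 in Paraclone cells, and its interaction was not called under median-of-ratios scaling. Catalase (CAT) was lower in Panc89 by 0.40 in parental cells, short of the threshold, and by 1.64 in Paraclone cells. The methionine sulfoxide reductases went both ways. MSRA was lower in Panc89 by 0.51 and 1.01, and MSRB3 by 5.05 and 4.56. The mitochondrial TXN2 and GLRX2 had smaller differences in Paraclone cells, 0.64 against 0.09 for TXN2 and -1.21 against -0.54 for GLRX2. CAT, MSRA, MSRB3, TXN2 and GLRX2 each lost the call in 8 to 14 of 20 alternatives.

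Among 33 hypoxia genes 10 had a called interaction (30.3%, against 25.8% of all genes), 2 positive and 8 negative. The median over the list was -0.28. Within the lines, 12 rose and 1 fell in Panc1 Paraclone cells, and 7 rose and 4 fell in Panc89 Paraclone cells, against 7.31% and 21.3% of all genes in Panc1 and 9.37% and 10% in Panc89. HIF1A, the oxygen-regulated subunit (chromosome 14, 61695513 to 61748259), was at 6.07, 6.05 and 6.09 in parental Panc1 and 7.33, 7.48 and 7.64 in Panc1 Paraclone libraries. It was at 7.73, 7.49 and 7.67 in parental Panc89 and 6.89, 7.51 and 7.13 in Panc89 Paraclone libraries. The 2 parental groups were apart and the 2 Paraclone groups overlapped: the line difference was 1.56 ± 0.15 in parental cells and -0.30 ± 0.15 in Paraclone cells (limma adjusted p = 0.0827), with an interaction of -1.87 (limma adjusted p = 1.06e-05). Without Panc89 Paraclone replicate 2 the Paraclone difference of HIF1A was -0.47 and passed the test (limma adjusted p = 0.00667).

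EGLN3, a prolyl hydroxylase that marks HIF subunits for degradation and is itself a HIF target, lies on chromosome 14 (33924227 to 34462774). It was at 0.52, 0.71 and 0.55 in parental Panc1 and 3.12, 2.83 and 3.18 in Panc1 Paraclone libraries. In Panc89 it was at 3.89, 4.11 and 3.95 in parental and 2.17, 2.36 and 2.40 in Paraclone libraries. No 2 of the 4 groups overlapped. Panc89 had 29.1-fold more EGLN3 TPM than Panc1 among parental cells and 1.84-fold less among Paraclone cells, and the interaction was -4.13 (limma adjusted p = 3.56e-06). The Paraclone difference of -0.73 (limma adjusted p = 0.0371) lost its call with a pseudocount of 0.1, with no filter on low values and without Panc89 Paraclone replicate 2.

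STC1, a secreted glycoprotein induced by low oxygen, rose in both lines. It was at 0.66, 0.76 and 1.00 in parental Panc1, 5.14, 4.96 and 4.90 in Panc1 Paraclone, 7.34, 7.76 and 7.33 in parental Panc89 and 10.36, 8.85 and 9.94 in Panc89 Paraclone libraries. The rise was 4.20 in Panc1 and 2.24 in Panc89, so the line difference was smaller in Paraclone cells, 4.71 against 6.67. ARNT2, a partner of HIF subunits, also rose in both lines, by 1.63 in Panc1 and 2.78 in Panc89, and differed between the lines by 1.11 in Paraclone cells against -0.04 in parental cells.

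The other called hypoxia genes are enzymes and a mitochondrial receptor. BNIP3, a mitophagy receptor, was lower in Panc89 by 1.39 in parental and 2.56 in Paraclone cells. LOX, a collagen cross-linking oxidase, was higher by 3.72 and 1.89, and hexokinase HK2 by 1.33 and 0.59. PDK1, a pyruvate dehydrogenase kinase, had 0.86 and -0.12, and the collagen hydroxylase P4HA1 -0.19 and -0.95. HIF1AN, which hydroxylates HIF1A, had -1.34 and -0.75. The interactions of HK2, PDK1, ARNT2 and LOX lost the call in 7, 5, 4 and 1 of 20 alternatives. EPAS1, the HIF2 subunit, and ANGPTL4, a lipase inhibitor with the second largest Paraclone difference of the list (-4.24), had interactions that did not pass the test, -0.62 and -0.89. That of ANGPTL4 passed without parental Panc1 replicate 2.

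**Figure D5:**
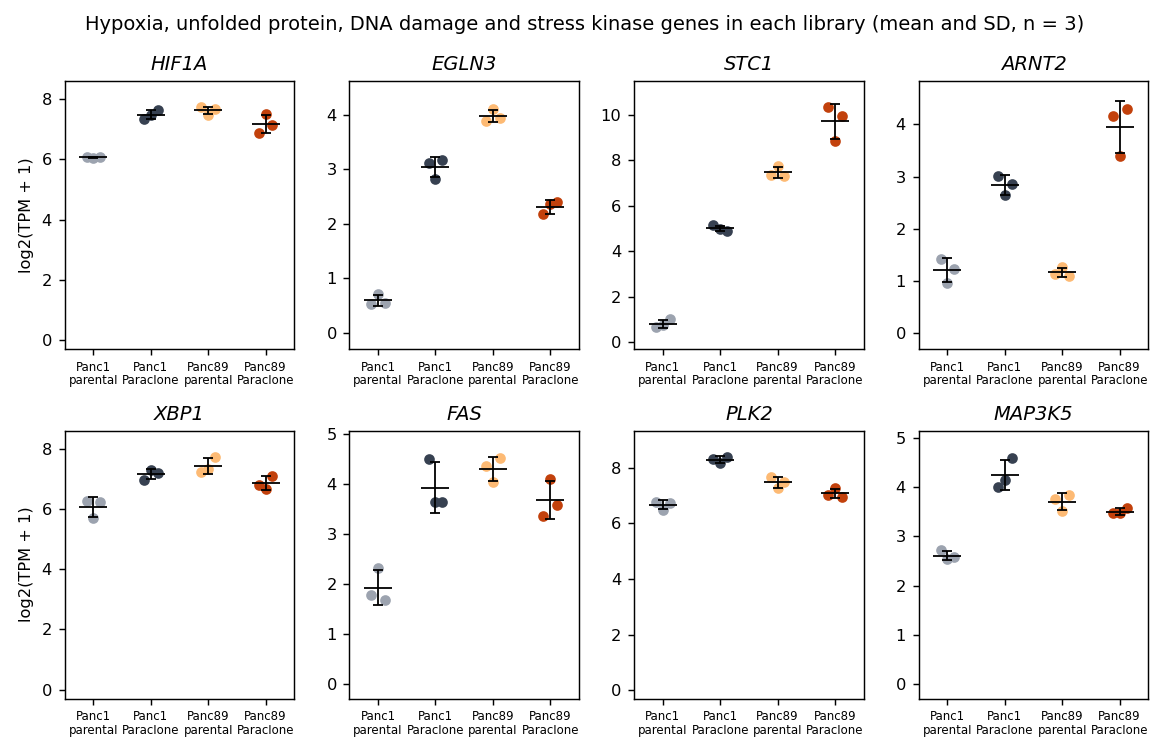
Points are single libraries of 8 hypoxia, unfolded protein response, DNA damage and stress kinase genes in the 4 groups, the y axis is log2(TPM + 1), and bars are the mean and SD of 3 replicates. In EGLN3, PLK2 and MAP3K5 the Panc1 Paraclone libraries lie above the Panc89 Paraclone libraries, while parental Panc1 is the lowest group.

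In the ER unfolded protein response list, 7 of 26 genes had a called interaction (26.9%, against 25.8% of all genes). Of the 7, 6 were negative, and the median over the list was -0.61. Between the Paraclone cultures 2 genes were higher and 11 lower in Panc89, against 5 higher and 4 lower between the parental cells. Of all genes, 30.2% were higher and 30.4% lower between the Paraclone cultures, and 27.5% and 38.5% between the parental cells. XBP1, the factor spliced by the ER sensor IRE1, was at 6.26, 5.69 and 6.24 in parental Panc1 and 6.97, 7.30 and 7.19 in Panc1 Paraclone libraries, and fell by 0.56 in Panc89 from 7.23, 7.31 and 7.73 to 6.81, 6.66 and 7.11. The line difference was 1.36 in parental cells and -0.30 in Paraclone cells, and the latter did not pass the test. Gene-level TPM do not separate its spliced form.

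The protein disulfide isomerases PDIA3 and PDIA6 and the secreted ER protein CRELD2 rose in Panc1 Paraclone cells, by 0.68, 0.79 and 1.35. They were lower in Panc89 among Paraclone cells, by 0.71, 0.78 and 0.71, with no called parental difference. CRELD2 was at 4.94, 6.66 and 5.59 in Panc89 Paraclone libraries, and without replicate 2 its Paraclone difference was -1.18 and its parental difference passed the test, as it also did without parental Panc1 replicate 2. DNAJC3, an ER co-chaperone, was higher in Panc89 by 1.72 in parental and 0.79 in Paraclone cells. EDEM1, a degradation factor, was lower by 0.35 and 1.08. CREB3L1, a membrane-bound factor of secretory cells, was the 1 gene with a called positive interaction, at -3.23 and -2.42, and no gene of the list had a called positive one under either rescaling. PDIA6, CREB3L1 and CRELD2 lost the call in 14, 9 and 4 of 20 alternatives. ATF6 had an interaction of 0.56 that did not pass the test. It rested on parental Panc1 replicate 2, which was at 4.97 beside 6.08 and 6.20, and without it the interaction of ATF6 was 0.95 and passed, as did both line differences, -0.57 in parental and 0.38 in Paraclone cells.

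Of 30 genes of the integrated stress response 5 had a called interaction (16.7%, against 25.8% of all genes), 1 positive and 4 negative. ATF4 was higher in Panc89 by 0.95 in parental and 0.59 in Paraclone cells, and DDIT3, which encodes the pro-apoptotic factor CHOP, ranged from 4.83 to 7.58 over the 12 libraries with no called difference. GDF15, a secreted stress cytokine, was at 7.55, 8.80 and 9.02 in Panc1 Paraclone and 5.26, 3.01 and 5.55 in Panc89 Paraclone libraries, and at 9.45, 7.63, 9.61 and 8.04, 7.61, 8.02 in parental Panc1 and Panc89. Its line difference was -3.85 ± 0.66 in Paraclone and -1.01 ± 0.66 in parental cells. The interaction of GDF15 was -2.84 (limma adjusted p = 0.036) and lost the call in 9 of 20 alternatives. Among these, it was -2.04 without Panc89 Paraclone replicate 2 and -2.21 without parental Panc1 replicate 2.

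ALDH1L2, a mitochondrial folate enzyme, fell in Panc1 Paraclone cells by 2.20, from 4.31, 2.80 and 4.24 to 0.73, 1.84 and 2.17. Between the lines ALDH1L2 differed by -3.01 in parental and -1.44 in Paraclone cells. The positive interaction of 1.57 (limma adjusted p = 0.0342) lost the call in 14 of 20 alternatives. SHMT2, a mitochondrial serine enzyme, was higher in Panc89 by 2.72 and 1.81, the amino acid transporter SLC7A5 by 2.08 and 1.37, and the factor CEBPB by 1.46 and 0.36. SLC7A5 and CEBPB lost the call in 12 and 10 of 20 alternatives.

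Few chaperones of the cytosol had a called interaction. In the heat shock list 2 of 24 genes had a called interaction, both positive (8.33%, against 25.8% of all genes). Of the 24 interactions 21 were above 0, against 9879 of 16093 over all genes, and the median was 0.22, against 0.17. Under upper quartile and median-of-ratios scaling 13 and 12 of the 24 were above 0. HSF1 was higher in Panc89 by 0.70 in parental and 0.79 in Paraclone cells. DNAJB6, a co-chaperone that holds back aggregation, was at 8.79, 8.40 and 8.68 in parental Panc1, 8.26, 8.59 and 8.42 in Panc1 Paraclone, 6.86, 6.90 and 6.88 in parental Panc89 and 7.67, 7.18 and 7.46 in Panc89 Paraclone libraries. It rose by 0.56 in Panc89, and the line difference went from -1.74 to -0.99, but the call was lost under both rescalings of the libraries. HSPA4, an HSP70-type exchange factor, differed by -0.65 in parental and -0.03 in Paraclone cells. FKBP4, a co-chaperone of HSP90, and SERPINH1, the collagen chaperone, had the largest Paraclone differences of the list, 2.21 and 1.64, close to the parental 1.91 and 1.40.

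Of 11 mitochondrial chaperones and proteases 5 fell and 0 rose (0 at an unadjusted p under 0.05 by limma) in Panc1 Paraclone against parental cells, where 21.3% of all genes fell and 7.31% rose, but 2 fell and 1 rose with upper quartile and 2 fell and 2 rose with median-of-ratios scaling. Of the 11 interactions 10 were above 0 (8 under both rescalings), against 9879 of 16093 over all genes. Called were 2 of the 11 (18.2%, against 25.8% of all genes), both positive. HSPD1, the mitochondrial HSP60, fell by 0.98 in Panc1, from 9.50, 9.65 and 9.46 to 8.91, 8.40 and 8.36, while the 6 Panc89 libraries lay between 8.67 and 9.30. Its line difference was -0.51 in parental and 0.36 in Paraclone cells, and the latter did not pass the test. YME1L1, an inner membrane protease, rose in Panc89 Paraclone by 0.48, with line differences of -0.25 and 0.52 and an interaction not called under median-of-ratios scaling. Without parental Panc1 replicate 2 the parental difference of HSPD1 lost its call and that of YME1L1 gained one. HSPD1 has processed pseudogenes that may share its reads. TRAP1, a mitochondrial HSP90, and ATF5, a factor of the mitochondrial stress response, had Paraclone differences of 0.83 and -2.05 and no called interaction.

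In the DNA damage list 7 of 28 genes had a called interaction (25.0%, against 25.8% of all genes), 4 positive and 3 negative. FAS, the death receptor, rose by 2.01 in Panc1, from 1.77, 2.32 and 1.69 to 4.51, 3.64 and 3.64. In Panc89 it was at 4.36, 4.04 and 4.52 in parental and 3.37, 4.11 and 3.57 in Paraclone libraries. The line difference was 2.38 in parental and -0.25 in Paraclone cells, where the groups overlapped.

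PLK2, a polo-like kinase induced by stress, was at 6.77, 6.47 and 6.74 in parental Panc1 and 8.32, 8.16 and 8.39 in Panc1 Paraclone libraries, above all 6 Panc89 libraries (6.95 to 7.67). The line difference of PLK2 was 0.82 in parental and -1.22 in Paraclone cells. PHLDA3, a repressor of AKT, went the other way in Panc1, falling by 1.50 from 3.63, 3.37 and 3.41 to 1.64, 1.73 and 2.53, and was at 5.71 to 6.76 in Panc89. Panc89 had 5.44-fold more PHLDA3 TPM than Panc1 among parental and 27.6-fold more among Paraclone cells, with an interaction of 2.08 (limma adjusted p = 0.00061).

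TP53I3, a quinone oxidoreductase, and BTG2, an antiproliferative factor, fell in Panc1 by 1.02 and 1.05. Their line differences were -1.01 and -0.28 in parental and 0.20 and 0.73 in Paraclone cells. TIGAR, a fructose bisphosphatase, had -0.55 and 0.49, and its interaction lost the call in 6 of 20 alternatives, both rescalings among them. SPATA18, a mitochondrial quality factor, was at 0.72 or lower, under 1 TPM, in every library of the 4 groups. It passed the filter only through Holoclone libraries, and its interaction lost the call in 10 of 19 alternatives. RRM2B, a ribonucleotide reductase subunit, was lower in Panc89 by 1.84 and 2.08 with no called interaction.

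Among 31 stress kinase and immediate early genes 9 had a called interaction (29%, against 25.8% of all genes). Of the 9, 3 were positive and 6 negative, and the median over the list was -0.86. Between parental cells 19 were higher and 6 lower in Panc89, and between Paraclone cells 10 were higher and 8 lower. Of all genes, 27.5% were higher and 38.5% lower between parental cells, and 30.2% and 30.4% between Paraclone cells. MAP3K5, the stress kinase ASK1, was at 2.72, 2.53 and 2.58 in parental Panc1, 4.0, 4.15 and 4.59 in Panc1 Paraclone, 3.76, 3.51 and 3.85 in parental Panc89 and 3.47, 3.47 and 3.58 in Panc89 Paraclone libraries. It rose by 1.64 in Panc1 and did not pass the test in Panc89, and its line difference went from 1.10 to -0.74.

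EGR2 and EGR3, immediate early zinc finger factors, were lower in Panc89 Paraclone than in parental Panc89. EGR2 fell by 2.52, from 3.54, 3.22 and 4.07 to 0.91, 1.27 and 1.08, and EGR3 by 1.90, from 2.13, 1.99 and 2.37 to 0.18, 0.23 and 0.38. In Panc1 Paraclone libraries EGR2 was at 0.42, 0.99 and 1.22 and EGR3 at 0.26, 0.31 and 0.38, so the lines no longer differed past the threshold in either gene. KLF4, an epithelial factor induced by stress, was higher in Panc89 by 3.99 in parental and 1.53 in Paraclone cells, with a rise of 1.59 in Panc1.

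FOSL1 and FOSL2 are subunits of the AP-1 factor and had interactions of opposite sign. FOSL1 was at 6.05, 6.25 and 5.86 in parental Panc89 and 7.95, 6.90 and 7.18 in Panc89 Paraclone libraries, and its line difference was -2.69 in parental and -0.74 in Paraclone cells. FOSL2 was at 5.39, 5.07 and 5.02 in Panc1 Paraclone and 4.39, 4.54 and 4.45 in Panc89 Paraclone libraries. The parental values of FOSL2 overlapped, with 4.78, 3.69 and 5.09 in Panc1 and 5.25, 5.05 and 5.29 in Panc89, and the lowest was parental Panc1 replicate 2. Without that library the parental difference of FOSL2 was 0.26 in place of 0.68, and its interaction was -0.96 and still called.

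The last genes of the list described here are p38 kinases and JNK1. MAPK13, the p38 delta kinase of epithelia, was at 0.79, 0.50 and 0.61 in Panc1 Paraclone and 5.87, 5.65 and 5.61 in Panc89 Paraclone libraries, a difference of 5.08 against 4.09 in parental cells. MAPK12, the p38 gamma kinase, was lower in Panc89 by 1.28 in Paraclone cells, with -0.24 in parental cells, and MAPK11, p38 beta, by 2.82 and 2.13 with no called interaction. MAPK8, which encodes JNK1, was lower by 1.39 in parental and 0.56 in Paraclone cells and fell by 1.01 in Panc1. The interaction of MAPK8 was not called under either rescaling.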

How the data were processed

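The human lines Panc1 and Panc89 were each sampled as parental, Holoclone and Paraclone cultures at 3 passages and sequenced as stranded paired-end mRNA libraries. The authors quantified transcripts with kallisto 0.46.1 against Ensembl GRCh38 and summed them to genes as scaled TPM. Deposited were log2(TPM + 1) values for 40266 gene symbols, of which 10923 are 0 throughout. They were used as deposited. TPM hold no counts, so depth and counting error are unknown, and differences of genes near 1 TPM are understated by the pseudocount of 1.

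Genes reaching 1 TPM in 3 or more of the 18 libraries were fitted with limma 3.58.1 (R 4.3.3) using 6 group means and a variance trend. Tests were two-sided, with Benjamini-Hochberg adjustment over 16093 genes and a threshold of 0.05. The fit was tested on simulated data. The 2 line differences compared share no library. The design was set up with counts as another possibility, which the unit did not call for. Positions are from GENCODE (GRCh38). The stress genes and lists were chosen with earlier results of these data known. Genes described first were taken by rule: the 10 most positive and 10 most negative interactions with a mean of 10 TPM in a group, the largest in each list, genes with both line differences called and opposite, the regulators, and the genes with the largest Paraclone differences. The other called genes were added, and a few items are not reported here. Alternatives were another pseudocount, other filters, scalings, replicate blocks, a fit of 4 groups, a fold threshold and leaving out each library.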

Additional observations from a re-analysis of the deposited data

Results flagged for a closer look

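The interaction is itself a test of whether the line difference differed between Paraclone and parental cells, so stress genes past its threshold (limma adjusted p under 0.05) are given here with their interactions on the log2(TPM + 1) scale. A negative value means that Panc89 stood lower relative to Panc1 among Paraclone cells than among parental cells.

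In the heat shock response list the interaction was 0.62 for HSPA4 and 0.76 for DNAJB6. In the mitochondrial chaperones and proteases list the interaction was 0.77 for YME1L1 and 0.87 for HSPD1. In the ER unfolded protein response list the interaction was -1.66 for XBP1, -1.38 for CRELD2, -0.93 for DNAJC3, -0.89 for PDIA3, -0.73 for EDEM1, -0.70 for PDIA6 and 0.81 for CREB3L1. In the integrated stress response list the interaction was -2.84 for GDF15, -1.10 for CEBPB, -0.91 for SHMT2, -0.71 for SLC7A5 and 1.57 for ALDH1L2. In the NRF2 response list the interaction was -4.67 for ALDH3A1, -3.59 for GPX2, -2.81 for EPHX1, -2.09 for AKR1C2, -1.57 for AKR1B10, -1.56 for NQO1, -1.46 for TKT, -1.28 for FTH1, -1.20 for TXNRD1, -1.19 for ME1, -1.18 for CBR1, -1.10 for GCLC and -0.80 for TXN. In the antioxidant enzymes list the interaction was -1.25 for CAT, -0.55 for TXN2, -0.51 for MSRA, 0.49 for MSRB3, 0.66 for GLRX2, 0.83 for GPX1, 1.30 for GPX3 and 3.33 for GPX7. In the metallothioneins and metal response list the interaction was 1.33 for MT2A, 1.68 for MT1F, 3.19 for MT1A and 4.38 for MT1M. In the hypoxia response list the interaction was -4.13 for EGLN3, -1.96 for STC1, -1.87 for HIF1A, -1.82 for LOX, -1.17 for BNIP3, -0.99 for PDK1, -0.76 for P4HA1, -0.74 for HK2, 0.59 for HIF1AN and 1.16 for ARNT2. In the DNA damage response list the interaction was -2.63 for FAS, -2.03 for PLK2, -0.46 for SPATA18, 1.01 for BTG2, 1.04 for TIGAR, 1.21 for TP53I3 and 2.08 for PHLDA3. In the stress kinases and immediate early genes list the interaction was -2.68 for EGR2, -2.46 for KLF4, -2.13 for EGR3, -1.84 for MAP3K5, -1.38 for FOSL2, -1.04 for MAPK12, 0.82 for MAPK8, 0.98 for MAPK13 and 1.95 for FOSL1.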

How the results depend on the processing

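No called result changed direction under the 20 alternatives, and the test kept 42 of the 68 interactions in each alternative that tested the gene. BTG2 and SPATA18 had 19, since the stricter filter removed them. The other 26 lost the call in at least 1, most often without Panc1 Paraclone replicate 2, where 15 were lost. With an absolute log2 difference over 1 also required, the counts were 5271 genes and 72 stress genes between the Paraclone cultures, 94 stress genes between parental cells, and 2232 genes and 44 stress genes for the interaction, of which 10 were larger and 17 smaller. The count of opposite genes with both differences called was 3 with no filter on low values, 3 with a replicate block within each line, and 3 to 8 when a library was left out. The count of larger differences was 10 to 20 when a library was left out, with 10 without Panc89 parental replicate 1 or 3. Smaller differences numbered 21 to 29 when a library was left out. The positive share of called interactions fell to 22.5% of stress genes and 49.7% of all genes with upper quartile scaling, and to 20.0% and 47.8% with median-of-ratios scaling, which moved the median interaction from 0.17 to 0.02 and 0.00. The pseudocount of 0.1 turned the uncalled interaction of AKR1C3 to 0.89, both scalings that of HSF1 to -0.09 and -0.11, and leaving out Panc1 parental replicate 2 that of FKBP4 to -0.05. The cause of these shifts was not tested.

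Equal replicate numbers did not pair the samples throughout: 18 correlations of their deviations ranged from -0.28 to 0.28, and 4 were over 0.1. In 8 of the 18 comparisons the equal number correlated best. All 3 numbers did so for parental Panc1 with Panc89 Paraclone (0.139, 0.236 and 0.0931). The same held for parental Panc89 with Panc89 Paraclone (0.0612, 0.0455 and 0.0342). With a replicate block over both lines 127 stress genes differed between the Paraclone cultures and 66 had an interaction called, and with a replicate block within each line 60 had one. The depth of the libraries is unknown, so what depth limits cannot be given.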

Other observations

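The Holoclone libraries, a colony type held to be rich in stem-like cells, entered no comparison here, and their log2(TPM + 1) values are given without a test. In Panc89 Holoclone cells GPX2 was at 5.76, 5.52 and 6.00 and ALDH3A1 at 10.12, 10.30 and 9.81, above every parental and Paraclone library. In Panc1 Holoclone cells both were at 0.08 or lower. EGLN3 was at 0.13, 0.16 and 0.10 in Panc1 Holoclone cells, below all Panc1 Paraclone libraries, and at 3.22, 1.70 and 1.70 in Panc89 Holoclone cells. HIF1A was at 6.12, 6.16 and 6.30 in Panc1 Holoclone and 6.81, 7.05 and 7.25 in Panc89 Holoclone cells. STC1 was at 0.08, 0.26 and 0.14 in Panc1 Holoclone and 7.0, 6.25 and 6.53 in Panc89 Holoclone cells.

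MT1M was at 3.45, 3.69 and 3.57 in Panc1 Holoclone cells, where the Panc1 Paraclone libraries are listed at 0. GPX7 was at 3.70, 3.74 and 3.64 and MT1A at 4.66, 4.64 and 4.34 in Panc1 Holoclone cells, and MT1M, GPX7 and MT1A were listed at 0 in all Panc89 Holoclone libraries. GDF15 was at 8.04, 9.57 and 10.02 in Panc89 Holoclone cells, above all 3 Panc89 Paraclone libraries.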
